A study of Homo sapiens with 4 samples.

Results

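The nuclear-encoded subunits of respiratory complexes II to V are described here in cells treated with GNE-987. The set holds 40 genes, chosen by symbol: 4 subunits of succinate dehydrogenase (complex II), 9 of cytochrome bc1 (complex III), 11 of cytochrome c oxidase (complex IV) and 16 of ATP synthase (complex V), its inhibitor included. All 40 were found among the 58735 genes of the expression table. RNA-seq had been carried out on 4 libraries of cells labelled NB4, a human line established from acute promyelocytic leukemia. The 2 control libraries were untreated, and the 2 GNE-987 libraries came from cells given 25 nM of the compound for 24 h. The labels give the treatment, while dose and time were taken from the authors' account of the experiment. GNE-987 is a degrader, a bifunctional molecule with one end for its target proteins and the other for a ubiquitin ligase, so that the targets are broken down. Nothing in the labels says whether the 2 libraries of a group came from separate cultures, so the P values measure the spread between these libraries, which may be technical.

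Complexes II to IV pass electrons from succinate and ubiquinol to oxygen, and complexes III and IV pump protons across the inner mitochondrial membrane while doing so. Complex V lets the protons flow back and makes ATP. Complex II is encoded wholly in the nucleus. Cytochrome b of complex III, the catalytic core of complex IV and part of the membrane sector of complex V are encoded by mitochondrial DNA. Complexes III to V are thus built from the products of both genomes. The nuclear genes are transcribed by RNA polymerase II, and the transcription factor NRF1, the ETS family factor GABP and YY1 are known to bind many of their promoters.

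A total of 6 promoters held the palindromic core that NRF1 binds, and they are shown because the genes behind them took both ends of the range of response to GNE-987, ATP5ME with the largest increase among the 40 genes and SDHD with the largest decrease. Each stretch was read on the strand of its gene from the RefSeq promoter table on GRCh38.p14, with 10 bases on either side, and capitals mark the match to GCGCATGCG or to its reverse complement.
ATP5ME: gccgctgacgGCGCATGCGtgcgcccagc
COX6A1: ggagggcacaCGCATGCGCacgaaggaaa
ATP5PF: cactcaaagaGCGCATGCGtacagagcaa
ATP5MC2: gcccgggtcaCGCATGCGCtgagccttcc
ATP5F1C: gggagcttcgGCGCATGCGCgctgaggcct
SDHD: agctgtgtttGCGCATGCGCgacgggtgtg
The stretches lie at chr4:674336-674364 (minus strand) for ATP5ME, chr12:120437884-120437912 (plus) for COX6A1, chr21:25735156-25735184 (minus) for ATP5PF, chr12:53676106-53676134 (minus) for ATP5MC2, chr10:7788145-7788174 (plus) for ATP5F1C and chr11:112086753-112086782 (plus) for SDHD. In ATP5F1C and SDHD the 2 strands match in overlapping positions. The matches begin between 219 bases (COX6A1) and 22 bases (ATP5F1C) before the RefSeq transcription start. The promoter table held windows of 250 bases before to 50 after the start for 31 of the 40 genes, and 6 of these 31 (19.4%) contained the motif on either strand, against 1.92% of all 35116 windows and 4.39% of the 8937 other tested protein-coding genes with a window.

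Of the 6 genes with this motif, 4 were called higher with GNE-987, ATP5F1C was not called, and SDHD was called lower, by the thresholds given below, where 33.6% of all tested genes were called higher and 24.9% lower. Their median log2 fold change was 1.21, and that of the genes with a window that lacked the motif was 1.38, while the other tested protein-coding genes with the motif had a median of -0.55. The ETS core CCGGAAG was present in 15 of the 31 genes (48.4%, against 10.3% of all windows and 23.5% of the other tested protein-coding genes). Of these 15 genes 12 were called higher, with a median of 1.51 against 0.97 without it. The other tested protein-coding genes with this core had a median of -0.52. The YY1 core AAGATGG was present in 9 of the 31 (29.0%, against 5.84% and 9.82%), of which 4 were called higher, a share near that of all tested genes. Their median was 0.75 against 1.39 without it, and that of the other tested protein-coding genes with the core was -0.65. These matches are descriptions of the letters in the windows, and no binding was measured.

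The deposited values are FPKM, fragments scaled by exon length and by library, so that levels can be compared between genes, and the reads behind them were recovered from the steps of the values. On genes, control replicates 1 and 2 held 19437935 and 19224945 reads, GNE-987 replicates 1 and 2 held 12351083 and 12855380, and no subunit had fewer than 164 reads in a library. One read was worth 2.75 and 2.61 times as much in the GNE-987 libraries as in control replicate 1, more than the depths alone would give, so every fold change of a gene depends on how the libraries are scaled. Scaling to equal reads on genes would lower each log2 fold change by 0.77, to equal FPKM sums by 1.47, and to GAPDH by 1.85. The label NB4 was checked with markers, which did not bear it out in the control libraries, where promyelocyte genes were low and erythroid genes high. Of 9 promyelocyte and granulocyte genes, 7 were below 1 FPKM in both control libraries, with MPO, the myeloperoxidase of the granules, at 0.0246 and 0 FPKM and CTSG at 0 in all 4, and their summed level was 10.9 and 9.59 FPKM in control and 32.4 and 29.7 with GNE-987. The 10 erythroid genes, GATA1 and globins among them, summed to 693 and 696 FPKM in control and 954 and 834 with GNE-987, where 4 of them were called higher and 5 lower. The part of these shifts in the results below was not tested.

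Most of the subunits were higher in the GNE-987 libraries in the deposited scaling. Expression was compared with limma on log2(FPKM + 0.1), and a gene was called at an unadjusted P value under 0.05 with a fold change over 2 or under 0.5. All 40 genes passed the filter of a mean of 0.5 FPKM. By this rule 25 of the 40 (62.5%) were called higher, against 33.6% of the 16668 tested genes and 24% of the 10996 tested protein-coding genes. Only SDHD and UQCRFS1 (5%) were called lower, against 24.9% of tested genes and 31.7% of tested protein-coding genes. The remaining 13 were not called, although for 10 of these the limma P value adjusted by the Benjamini-Hochberg method was under 0.05, as it was for 37 of the 40 in all, against 77.6% of all tested genes. Both GNE-987 libraries lay above both control libraries for 36 genes and below both for 3 (background 47.5% and 41.6% of tested genes), and SDHB was the only one with overlapping groups.

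The median log2 fold change of the 40 genes was 1.30, and that of all tested genes was 0.17, a distance of 1.12. The distance stayed between 1.04 and 1.095 when the libraries were scaled to equal reads on genes, equal reads on nuclear genes, equal FPKM sums or GAPDH, and was 0.70 after quantile normalization, whereas the median itself fell to 0.53, 0.71, -0.17, -0.55 and 0.46 in that order. Under equal reads on genes 7 of the 40 genes (17.5%) were called higher, against 25.1% of tested genes, and 2 lower, against 39.8%. Of the 10996 tested protein-coding genes, 1734 were called higher and 5573 lower under equal reads on genes. A scaling factor shifts all genes of a library by about the same amount, so the distance could hardly change under these factors. Of these scalings only quantile normalization could change it much, and there the subunits still lay above the typical gene. The count of increases changed with the scaling, and the direction itself turned under equal FPKM sums and GAPDH. Fold changes below are in the deposited scaling.

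**Figure D1:**
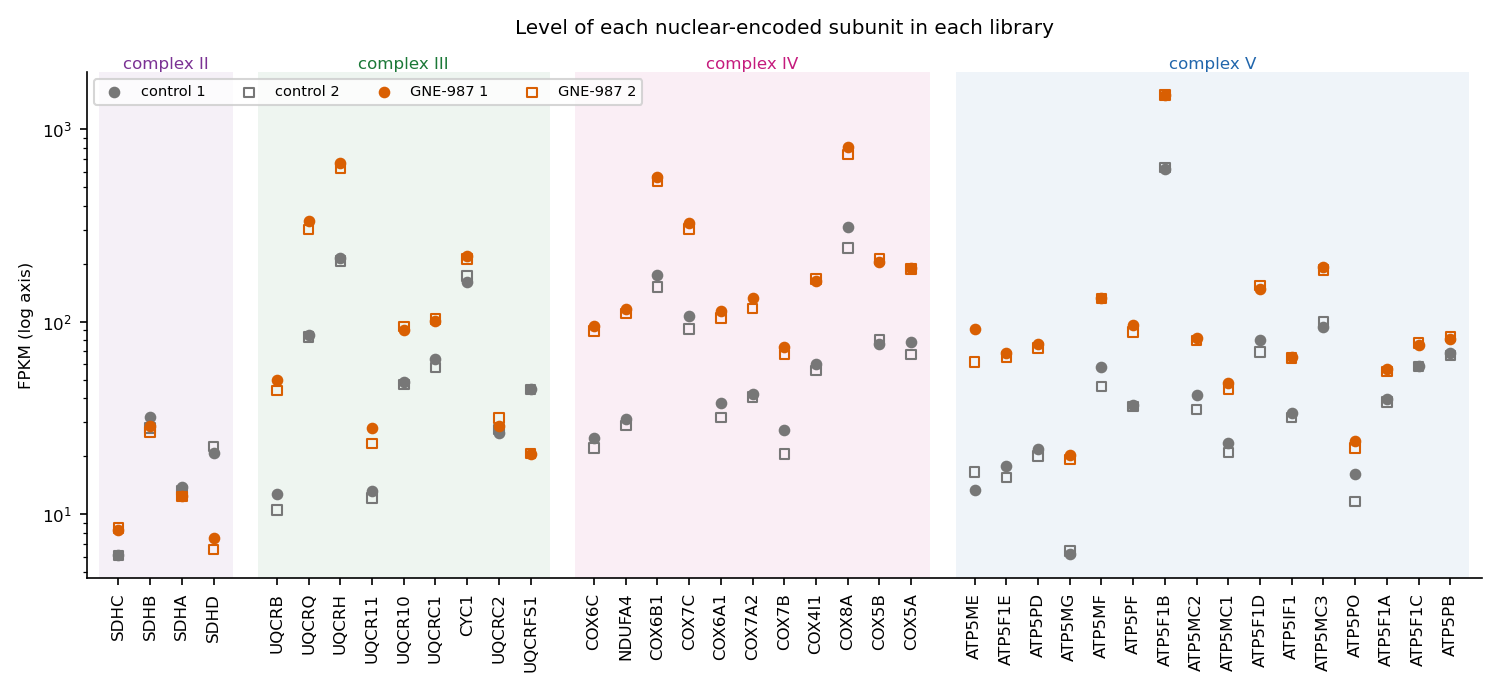
FPKM (log axis) of the 40 nuclear-encoded subunits in each of the 4 libraries, by complex and, within a complex, by decreasing log2 fold change, with circles for replicate 1 and squares for replicate 2. In the deposited scaling both GNE-987 points lie above both control points for 36 genes, and below them for SDHA, SDHD and UQCRFS1.

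Complex II, succinate dehydrogenase, was the only one of the 4 complexes with no subunit called higher, and 1 of its 4 (25%) was called lower. Over all tested genes 33.6% were called higher and 24.9% lower, and over tested protein-coding genes 24% and 31.7%. A count over 4 genes cannot tell the complex from these shares. Its median of -0.12 lay 0.17 above that of tested protein-coding genes. SDHD, the small membrane anchor subunit, fell 3.08-fold. It was at 20.7 and 22.4 FPKM in control and at 7.46 and 6.55 FPKM with GNE-987 (log2 fold change -1.61 ± 0.09 SE, n = 2 libraries per group, limma adjusted P = 0.000487). These values rest on 1351 and 1409 reads in control and 177 and 164 with GNE-987, and the groups lie far apart. SDHD is at chr11:112086824-112120016 on hg38, and a read-through gene annotated on the same strand was listed at 0 in all 4 libraries.

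The other subunits of complex II changed little. SDHC, the second membrane anchor, was at 6.09 FPKM in each control library and at 8.24 and 8.45 FPKM with GNE-987, a log2 fold change of 0.45 ± 0.06 that stayed under the fold threshold. Its FPKM level is the lowest of the complex in control, but its reads came out whole at a length of 14160 bases where the merged GENCODE exons span 1902, so the level against other genes is uncertain. SDHA, the flavoprotein that oxidizes succinate, was at 13.7 and 13.3 FPKM in control and 12.4 and 12.3 FPKM with GNE-987 (-0.12 ± 0.05).

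The GNE-987 values of SDHA were below both control values without passing the test. Pseudogenes named after SDHA carried 70.4% and 76.2% as many reads as SDHA itself in control and 101% and 108% with GNE-987, so its values are uncertain where reads could be split between copies. SDHB, the iron-sulfur subunit, had the highest control level of the complex, 31.8 and 28 FPKM, and was at 28.6 and 26.7 FPKM with GNE-987 (-0.11 ± 0.08), with overlapping groups.

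Ratios between subunits inside 1 library do not depend on the scaling, and these were chosen after the values were seen. The size of a ratio depends on the lengths used, but its change between groups does not. The ratio of SDHD to SDHB was 0.651 and 0.800 in control and 0.261 and 0.245 with GNE-987. SDHD to SDHC moved from 3.39 and 3.68 to 0.906 and 0.775. SDHA to SDHB stayed at 0.433 and 0.473 against 0.434 and 0.462. The anchors of the complex thus parted from each other, while the 2 catalytic subunits kept their ratio.

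In complex III subunits moved in both directions. Of its 9 genes, 4 were called higher (44.4%, against 33.6% of tested genes and 24% of tested protein-coding genes), UQCRFS1 was called lower and 4 were not called, with a median log2 fold change of 0.94. The 3 highest were small accessory subunits. UQCRB, which lies on the matrix side near the quinone site, was at 12.6 and 10.5 FPKM in control and at 49.7 and 44 FPKM with GNE-987, 4.05-fold higher (2.01 ± 0.12, limma adjusted P = 0.000536). UQCRQ, a small membrane subunit, rose 3.76-fold from 85.5 and 83.1 FPKM to 333 and 301 FPKM (1.91 ± 0.06). UQCRH, the acidic hinge protein beside cytochrome c1, with the highest FPKM of the complex in control, rose 3.07-fold from 214 and 207 FPKM to 667 and 628 FPKM (1.62 ± 0.05).

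In all 3 the libraries of each group lay close together and far from the other group. UQCR11 passed the fold threshold narrowly (1.01 ± 0.11), and UQCR10, another small subunit, did not reach it (0.94 ± 0.05). UQCRB had the lowest control FPKM of the complex. In reads it held 2826 and 2256 in control, more than UQCR11 with 652 and 575. A retrocopy of UQCRH that is annotated as a gene of its own, UQCRHL, held 0.0269 and 0.0244 of the UQCRH level in control and 0.0250 and 0.0223 with GNE-987.

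Of the longer subunits of complex III none was called higher. UQCRFS1, the Rieske iron-sulfur protein that takes electrons from ubiquinol, fell 2.17-fold, from 44.7 and 44.5 FPKM to 20.5 and 20.7 FPKM (-1.11 ± 0.04, limma adjusted P = 0.000216). It lies at chr19:29205320-29213151 and overlaps no other annotated gene body. UQCRC2, one of the 2 core proteins, was at 26.3 and 27.5 FPKM in control and 28.7 and 31.6 FPKM with GNE-987 (0.16 ± 0.07), close to the median of all genes. CYC1, cytochrome c1, was at 162 and 172 FPKM in control and 219 and 212 FPKM with GNE-987 (0.37 ± 0.05), and UQCRC1, the other core protein, changed by 0.74 ± 0.07, both without reaching the fold threshold.

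Within single libraries the 2 electron-carrying nuclear subunits parted: the ratio of UQCRFS1 to CYC1 was 0.277 and 0.258 in control and 0.0937 and 0.0977 with GNE-987. The ratio of UQCRH to CYC1, both at the cytochrome c docking side, went from 1.32 and 1.20 to 3.04 and 2.97.

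All 11 subunits of complex IV rose, in a narrow range of log2 fold changes from 1.38 to 1.97 with a median of 1.60. Limma adjusted P values ran from 0.000182 to 0.00179, and both GNE-987 libraries lay above both control libraries for each of them. The set covers COX4I1 and COX5A, which bind the core and take part in regulation, COX5B, which binds zinc, and the small subunits COX6A1, COX6B1, COX6C, COX7A2, COX7B, COX7C and COX8A, with NDUFA4, which was long counted as a complex I subunit. Scaled to GAPDH, 9 of these 11 took a log2 fold change below 0, but none was called lower, and the median of the complex stayed above that of all genes in each scaling.

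COX6C showed the largest increase of complex IV, from 24.9 and 22.1 FPKM in control to 94.5 and 89.5 FPKM with GNE-987 (1.97 ± 0.08, 3.92-fold). NDUFA4 followed, with 31.0 and 28.8 FPKM in control and 116 and 110 FPKM with GNE-987 (1.92 ± 0.06, 3.78-fold). COX6B1, which faces the intermembrane space where cytochrome c docks, went from 174 and 151 FPKM to 565 and 539 FPKM (1.76 ± 0.08).

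At the lower end of the complex, COX5A went from 78.2 and 67.4 FPKM to 191 and 188 FPKM (1.38 ± 0.08), still 2.60-fold. COX5B went from 76.5 and 80.3 FPKM to 203 and 212 FPKM (1.41 ± 0.05). COX8A, whose FPKM was the highest of the complex, stood at 312 FPKM in control replicate 1 and 241 FPKM in control replicate 2, which lie apart, and reached 812 and 742 FPKM with GNE-987 (1.5 ± 0.15). The highest and the lowest of the 11 changes differed by 0.58 on the log2 scale, against 3.94 over all 40 genes. The lowest control FPKM of complex IV was that of COX6C, and COX7B was next to it, although COX6A1 had fewer reads in control than either.

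Isoforms of complex IV subunits that are known from single tissues were scarce. COX4I2, COX6B2, COX7A1, COX7B2 and COX8C did not pass the filter. COX6A2, the heart and muscle form of COX6A1, listed at 0 in control replicates 1 and 2, had 10 and 7 reads with GNE-987 (2.21 and 1.47 FPKM) and was called higher. DMAC2L, known as factor B of ATP synthase, was called lower (-1.30 ± 0.22). Of the 13 other nuclear subunits and isoforms listed, 7 were tested, 5 were called higher and 1 lower.

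**Figure D2:**
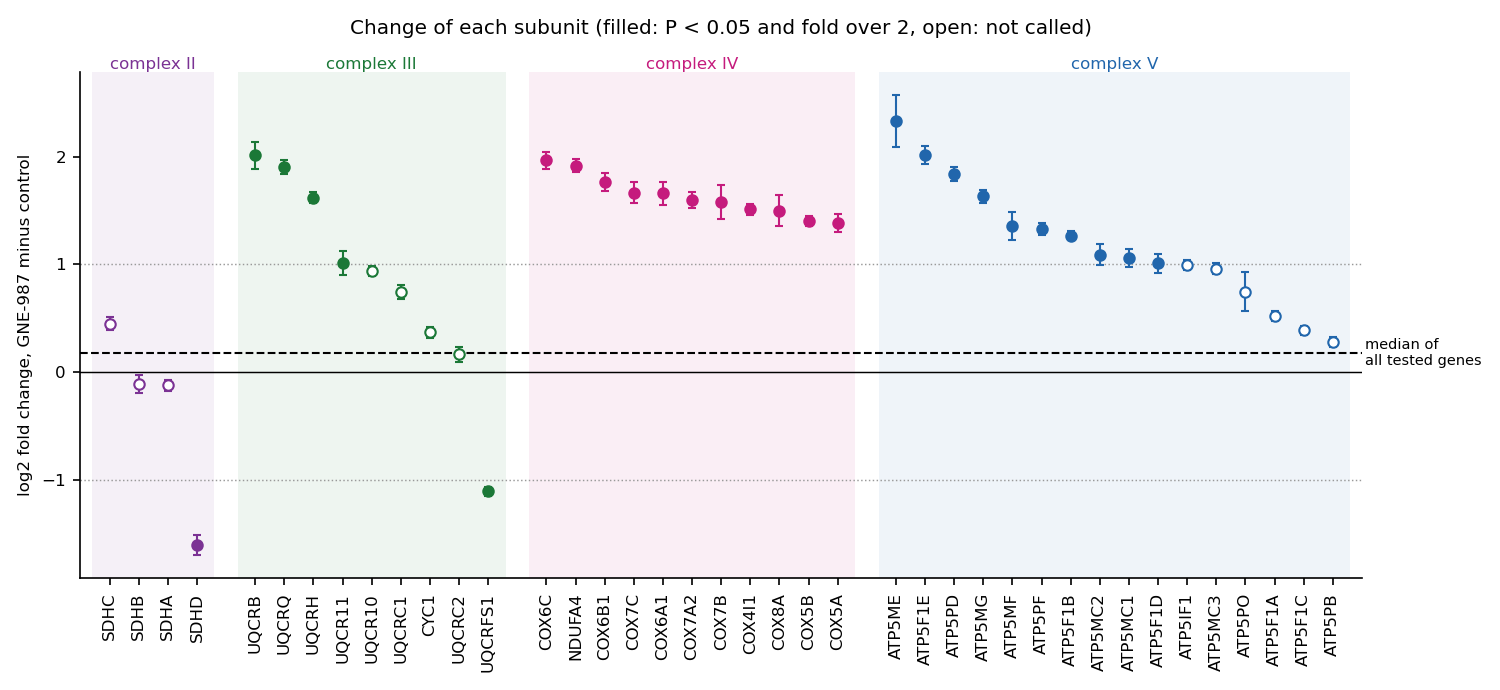
Log2 fold change of GNE-987 minus control with its SE for each subunit in the deposited scaling (n = 2 libraries per group), where filled points were called, open points were not, dotted lines mark the fold threshold and the dashed line the median of all tested genes. All 11 complex IV points are filled and above 1, and SDHD (-1.61) and UQCRFS1 (-1.11) are the 2 filled points below 0. Scaled to GAPDH all points would lie about 1.85 lower, which turns the direction of most.

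Complex V covered the widest range of increases. Of its 16 genes, 10 were called higher, none was called lower and 6 were not called, with a median log2 fold change of 1.07, and both GNE-987 libraries lay above both control libraries for all 16. ATP5ME, the small e subunit of the membrane sector that takes part in dimer formation, had the largest increase of the 40 genes, 5.14-fold. It stood at 13.3 and 16.5 FPKM in control and at 91.5 and 61.6 FPKM with GNE-987 (2.33 ± 0.24, limma adjusted P = 0.00184). Its 2 GNE-987 libraries differ the most among the subunits, and it rests on 287 and 344 reads in control and 719 and 511 with GNE-987. The gene, at chr4:672436-674330, overlaps MYL5 on the opposite strand, which was at 1.23 and 1.48 FPKM in control and 1.58 and 2.18 FPKM with GNE-987. In reads MYL5 held 42.5% and 41.0% as many as ATP5ME in control and 7.93% and 16.2% with GNE-987.

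ATP5F1E, the epsilon subunit of the central stalk, rose 4.05-fold, from 17.7 and 15.4 FPKM to 68.8 and 65.3 FPKM (2.01 ± 0.08). ATP5PD, the d subunit of the peripheral stalk, rose 3.59-fold, from 21.8 and 20.0 FPKM to 76.9 and 73.2 FPKM (1.84 ± 0.06). ATP5MG, the g subunit of the membrane sector, had the lowest control FPKM of the complex, 6.16 and 6.42, and reached 20.2 and 19.2 FPKM (1.63 ± 0.06). In reads ATP5MG held 1200 in each control library, more than ATP5ME with 287 and 344.

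Subunits of one part of the enzyme did not move as a block. In the catalytic head, ATP5F1B, the beta subunit that holds the catalytic sites, was the most abundant of the 40 transcripts at 621 and 633 FPKM in control, and rose to 1510 FPKM in each GNE-987 library (1.27 ± 0.04, 2.41-fold). Its partner ATP5F1A, the alpha subunit, was at 39.8 and 38.2 FPKM in control and 56.9 and 54.9 FPKM with GNE-987 (0.52 ± 0.05), and was not called.

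The ratio of ATP5F1B to ATP5F1A in the same library went from 15.6 and 16.6 to 26.5 and 27.5. In the central stalk ATP5F1C, the gamma subunit, was at 58.7 and 58.5 FPKM in control and 75.8 and 77.4 FPKM with GNE-987 (0.39 ± 0.04), also not called, whereas its neighbours ATP5F1D (1.01 ± 0.09) and ATP5F1E were called higher. In the peripheral stalk ATP5PB had the smallest change of the complex, from 69.0 and 66.7 FPKM to 81.0 and 83.6 FPKM (0.28 ± 0.04), ATP5PO changed by 0.75 ± 0.18 without being called, and ATP5PF (1.33 ± 0.06) and ATP5PD were called higher. In the membrane sector ATP5MF rose by 1.35 ± 0.13 on the log2 scale.

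The genes ATP5MC1, ATP5MC2 and ATP5MC3 encode the c subunit of the rotor ring and differ in their import sequences, the mature protein being the same. ATP5MC1 went from 23.4 and 20.9 FPKM to 48.1 and 44.3 FPKM (1.06 ± 0.08), and ATP5MC2 from 41.4 and 35 FPKM to 82.4 and 79.7 FPKM (1.09 ± 0.10). ATP5MC3 went from 94.4 and 99.97 FPKM to 193 and 185 FPKM (0.96 ± 0.05), just under the fold threshold.

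The 3 genes moved together, so that their shares of the summed c subunit FPKM were nearly the same in each library. ATP5MC3 held 59.3% and 64.2% in control and 59.6% and 59.9% with GNE-987. ATP5MC2 held 26.0% and 22.4% against 25.5% and 25.8%, and ATP5MC1 held 14.7% and 13.4% against 14.9% and 14.3%. The reads of ATP5MC3 came out whole at 6780 bases against 3883 of merged GENCODE exon, so its share depends on the length used.

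ATP5IF1, which inhibits ATP hydrolysis by the enzyme when the proton gradient fails, was at 33.4 and 31.7 FPKM in control and 65.4 and 64.6 FPKM with GNE-987. Its ratio of means was 2.00 and its log2 fold change 1.00 ± 0.05, a value that falls just short of the threshold before rounding. Relative to ATP5F1B it went from 0.0537 and 0.0501 to 0.0433 and 0.0428, the inhibitor rising a little less than the catalytic subunit.

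Genes nearest to the fold threshold decide the count. ATP5F1D, UQCR11, ATP5MC1 and ATP5MC2 were called with log2 fold changes below 1.1, and ATP5IF1, ATP5MC3 and UQCR10 were left out above 0.9. Without control replicate 2 these 4 lost the call, at 0.90, 0.95, 0.98 and 0.97 in the order named, and ATP5MC3 gained it at 1.00. Without GNE-987 replicate 1, UQCR11 (0.88) and ATP5MC1 (1.00) lost it, without GNE-987 replicate 2 ATP5F1D did (0.98), and ATP5IF1 gained it without control replicate 1 (1.03) or GNE-987 replicate 2 (1.00). The test against a fold change of 2 kept 20 genes as higher and only SDHD as lower. Summed over a complex, FPKM went from 72.3 and 69.8 to 56.7 and 54.0 for complex II and from 670 and 662 to 1536 and 1458 for complex III. For complex IV it went from 970 and 832 to 2794 and 2640, and for complex V from 1233 and 1205 to 2770 and 2716.

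As a share of all FPKM in a library, which no scaling factor changes, complex II went from 0.0331% and 0.0307% to 0.00909% and 0.00882%, and complex IV from 0.444% and 0.366% to 0.448% and 0.431%. Complex III went from 0.307% and 0.291% to 0.246% and 0.238%, and complex V from 0.564% and 0.530% to 0.444% in the first and 0.443% in the second GNE-987 library. The share of all FPKM taken by mitochondrially encoded genes went from 16.1% and 19.4% to 40.6% and 39.7% at the same time, which lowers every nuclear share. As a share of the FPKM on nuclear genes only complex II was lower with GNE-987, at 0.0153% and 0.0146% after 0.0395% and 0.0381%. Complex III went from 0.366% and 0.362% to 0.414% and 0.395%, complex IV from 0.530% and 0.454% to 0.753% and 0.716%, and complex V from 0.673% and 0.658% to 0.747% and 0.736%.

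Within the 40 genes the change went with the length of the protein. Of the 23 genes that encode fewer than 150 amino acids in the canonical GENCODE transcript, 20 were called higher and none lower, with a median log2 fold change of 1.60. Of the 7 between 150 and 250 amino acids, 4 were called higher and SDHD was called lower. Of the 10 longer ones, ATP5F1B was the only one called higher, UQCRFS1 was called lower, and the rest were not called. Length goes with the complex in part. The longest protein of complex IV, COX4I1, has 169 amino acids, and the shortest of complex II, SDHD, has 159. SDHC also has 169 amino acids, and its log2 fold change was 0.45, against 1.51 for COX4I1 and -1.61 for SDHD. How much of the difference between complexes IV and II goes with length was not tested.

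In other tested protein-coding genes the share called higher also fell with length. Of 836 other genes under 150 amino acids 45.1% were called higher and 15.7% lower, with a median of 0.78. Of 2392 genes from 250 to 400 amino acids 23.0% were called higher, against 0 of 5 subunits, and of 2885 genes of 700 amino acids or more 18.6% were called higher and 35.9% lower, with a median of -0.53. Across the 40 subunits the log2 fold change had a Pearson r of -0.62 and a Spearman rho of -0.70 with log2 coding length, and across the 10956 other genes r was -0.13 and rho -0.14. These are correlations across genes that share the same 4 libraries, given as descriptions. With the log2 control FPKM, the subunits had r = 0.07 and rho = -0.03, and the other genes had r = -0.49 and rho = -0.30. The control values also enter the fold change.

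**Figure D3:**
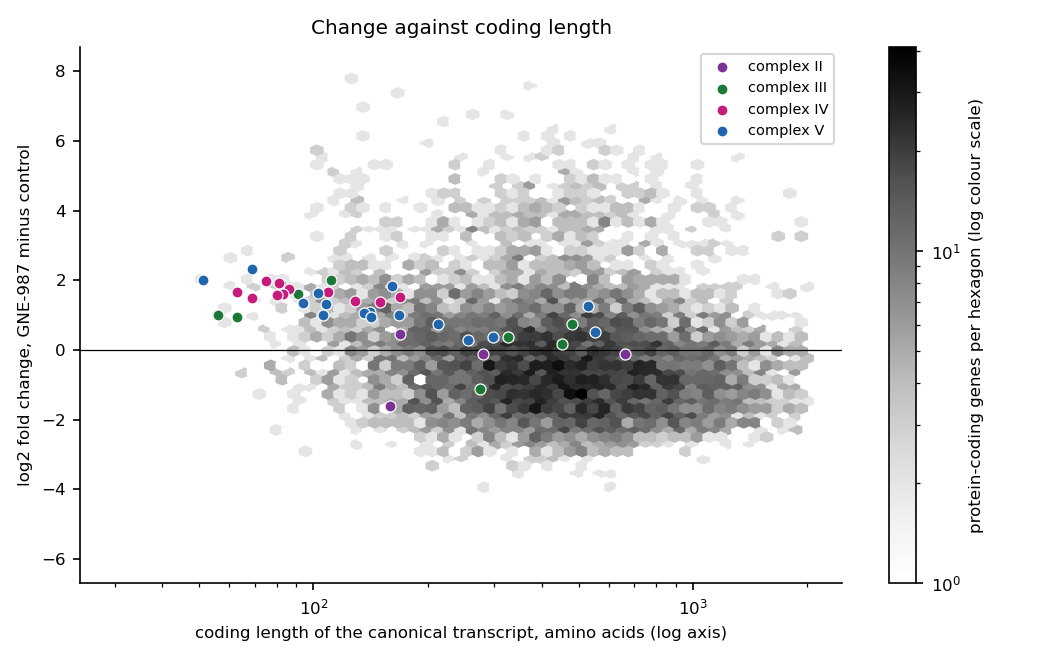
Log2 fold change of GNE-987 minus control (deposited scaling) against coding length in amino acids (log axis) for tested protein-coding genes of 30 to 2000 amino acids as grey hexagons and for the 40 subunits as points coloured by complex. The subunits under 150 amino acids lie between 0.94 and 2.33, and of the 10 with 250 or more only ATP5F1B passes 1.

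The partners encoded in mitochondrial DNA stood higher still, also in the deposited scaling. All 6 of those in complexes III to V were called higher, with log2 fold changes between 2.46 (MT-CO3) and 2.79 (MT-ATP6). MT-CYB, the cytochrome b of complex III, was at 1762 and 1876 FPKM in control and 10987 and 10398 FPKM with GNE-987. MT-CO1, the catalytic subunit of complex IV, was at 4219 and 5678 FPKM in control and 29196 and 28279 FPKM with GNE-987.

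The balance of the 2 genomes within a complex is free of scaling. MT-CO1 to COX4I1 was 70.4 and 102 in control and 179 and 170 with GNE-987. MT-CYB to CYC1 was 10.9 in each control library and 50.2 and 49.2 with GNE-987, and MT-ATP6 to ATP5F1B was 4.14 and 6.77 against 15.8 and 14.7. In each of the 3 complexes the mitochondrial partner thus gained on the nuclear one, with no overlap between groups. Reads on mitochondrially encoded genes were 3.75% and 4.54% of all reads on genes in control and 15.7% and 15.3% with GNE-987.

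Transcripts of assembly factors, the proteins that help to build the complexes, were more often called lower than higher. Of 43 assembly factors of complexes II to V, 41 were tested, 18 were called lower (43.9%, against 24.9% of tested genes and 31.7% of tested protein-coding genes), 3 were called higher and 20 were not called. Their median log2 fold change was -0.85, which is 1.02 below the median of all tested genes and 0.55 below that of tested protein-coding genes. COA7, a heme-binding factor of complex IV assembly, fell most, from 15.9 and 17.6 FPKM to 1.87 and 1.36 FPKM (-3.31 ± 0.18, limma adjusted P = 0.000414). COX20, a chaperone of the MT-CO2 protein, had the largest increase, from 0.357 and 0.390 FPKM to 3.34 and 2.82 FPKM (2.74 ± 0.17), on few reads.

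In complex IV the 11 nuclear subunits were all called higher, and of the 23 tested assembly factors 11 were called lower and 2 higher. For complex II, 2 of 4 assembly factors were called lower, and for complex III 3 of 9 (33.3%), near the 31.7% of tested protein-coding genes. For complex V it was 2 of 5, with 1 called higher and a median of 0.12, which is 0.42 above that of tested protein-coding genes. The difference between subunits and assembly factors was not tested.

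Among the nuclear subunits of complex I, 15 of 37 were called higher, 40.5% against 33.6% of tested genes and 24% of tested protein-coding genes. Only 1 (2.70%) was called lower, against 24.9% and 31.7%. Their median was 0.81, between NDUFS1 (-1.03 ± 0.14) and NDUFA2 (1.95 ± 0.09). It lay 1.11 above the median of tested protein-coding genes, and that of the 40 subunits of complexes II to V lay 1.59 above it. Of 13 tricarboxylic acid cycle enzymes 3 were called higher (23.1%) and 1 lower, with a median of 0.56, from SUCLA2 (-1.26 ± 0.20) to OGDH (1.47 ± 0.04). Of 8 carriers and channels of the mitochondrial membranes, cytochrome c included, 3 were called higher (37.5%) and 1 lower, from VDAC3 (-1.44 ± 0.06) to the phosphate carrier SLC25A3 (1.53 ± 0.06). These lists lay between the subunits of complexes III to V and the assembly factors by their medians.

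Of 12 transcription factors and coactivators of respiratory genes, 11 were tested, 6 were called lower (54.5%, against 24.9% of tested genes and 31.7% of tested protein-coding genes) and NRF1 was the only one called higher. NRF1 went from 5.30 and 5.46 FPKM to 14.8 and 13.2 FPKM (1.36 ± 0.08, limma adjusted P = 0.000547). PPRC1, a coactivator of NRF1, fell most, from 18.1 and 18.6 FPKM to 1.86 and 2.12 FPKM (-3.14 ± 0.09). NRF1 RNA and the RNA of its coactivator thus moved apart in these libraries.

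**Figure D4:**
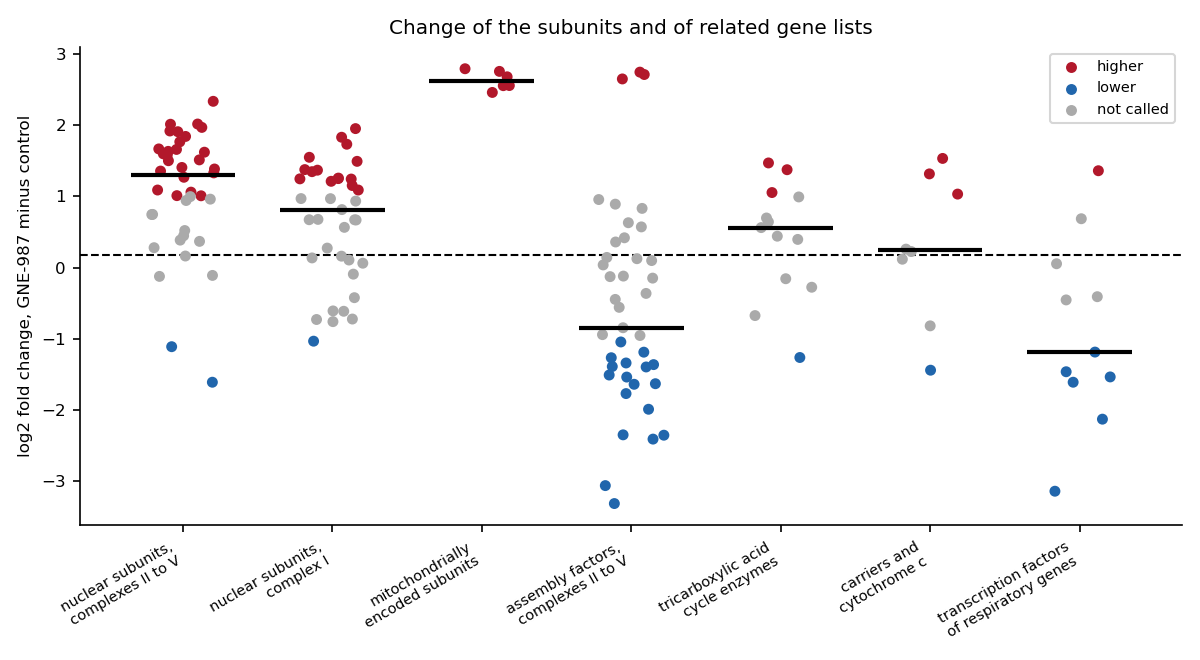
Log2 fold change of GNE-987 minus control (deposited scaling) for each tested gene of 7 lists, with red for called higher, blue for called lower and grey for not called, black bars for list medians and a dashed line for the median of all tested genes. The medians run from 2.62 for the mitochondrially encoded subunits through 1.30 for the nuclear subunits of complexes II to V to -0.85 for the assembly factors and -1.19 for the transcription factors; scaled to GAPDH the median of the nuclear subunits falls below 0.

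Reads could be shared with other copies or neighbours. Pseudogenes named after a member exist for 31 of the 40 genes, 133 in all, of which 60 were above 0 in a library. Together they held 1.34% and 1.44% as many reads as the members in control and 0.877% and 0.928% with GNE-987, and SDHA, above, carried most of these. For COX6A1 the pseudogene reads were 11.1% of the reads of the gene in control replicate 1 and 10.7% in GNE-987 replicate 1. The body of 15 members overlaps another protein-coding gene, and whether the counting used strand is not given in the sources used here. On the opposite strand, CPSF4 held 58.5% and 74.4% as many reads as ATP5MF in control and 23.4% and 22.3% with GNE-987, VPS13B 55.7% and 72.3% as many as COX6C against 6.31% and 5.53%, and KCTD2 53.4% and 65.7% as many as ATP5PD against 21.5% and 19.9%. How many of these reads lie in the shared stretch was not tested.

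The highest and the lowest of the 4 complexes stayed the same under scaling. Complex IV had the highest median and complex II the lowest in each of the 6 scalings drawn. Coding length goes with this order in part, and its share in it was not tested. Complex IV stood at 1.60 in the deposited scaling, 1.01 with equal reads on nuclear genes, 0.83 with equal reads on all genes, 0.64 after quantile normalization, 0.13 with equal FPKM sums and -0.26 scaled to GAPDH. Complex II stood at -0.12, -0.70, -0.88, -0.32, -1.58 and -1.96 in the same order, below the median of all tested genes each time. In the deposited scaling it lay 0.17 above the median of tested protein-coding genes. A scaling factor moves all complexes by about the same amount, so it could hardly change their order. Quantile normalization could, and it took complex III from 0.94 to -0.044 and complex V from 1.07 to 0.52.

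**Figure D5:**
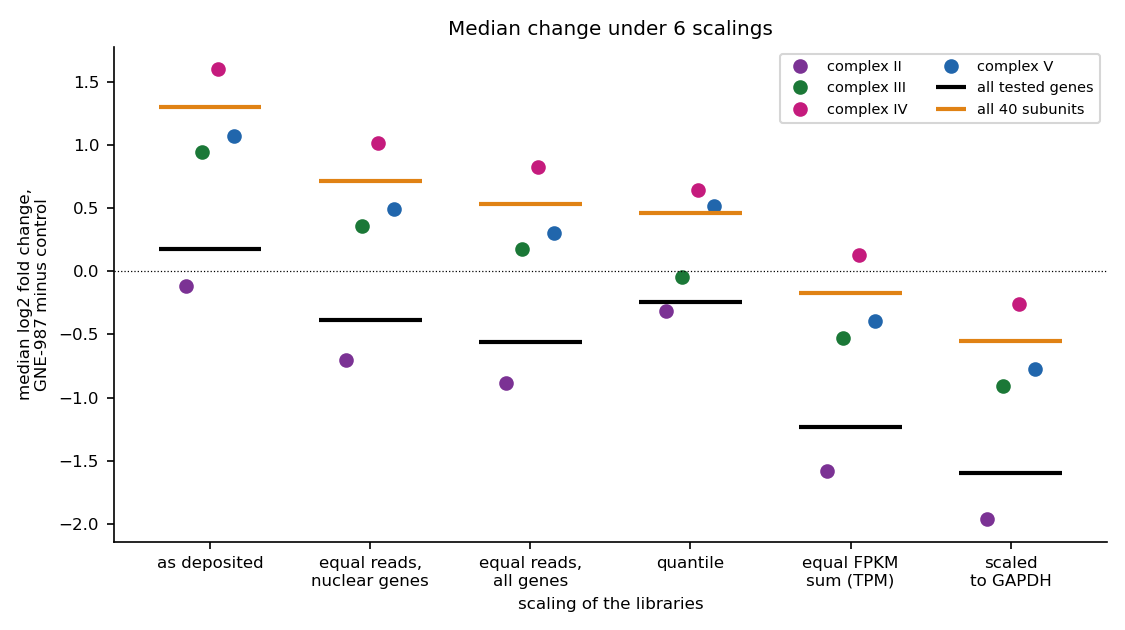
Median log2 fold change of GNE-987 minus control for each complex (points), for the 40 subunits (orange bars) and for all tested genes (black bars) under 6 scalings of the libraries. The orange bar lies above the black bar in each scaling, by 0.70 to 1.12, and passes below 0 with equal FPKM sums and GAPDH. A scaling factor per library leaves the distance between the bars nearly unchanged, and only quantile normalization could move it much.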

How the data were processed

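RNA-seq of 2 control and 2 GNE-987 libraries was used, and groups and replicate numbers come from the labels. The authors mapped filtered reads with HISAT2 2.0.5 on hg38 (submitters' processing notes) and deposited one FPKM value per gene and library. The counting program and annotation are not given in the sources used here. Deposited values already followed median-ratio scaling. Gene names and positions came from GENCODE release 44. The members and lists were chosen with earlier results of these data known.

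The test was limma (version 3.58.1, R 4.3.3) on log2(FPKM + 0.1) for genes averaging 0.5 FPKM or more, two-sided, with empirical Bayes moderation, an intensity trend and no replicate block. P values were adjusted by the Benjamini-Hochberg method over 16668 genes. Fold changes on this scale understate changes of low genes. Recovered reads were whole within 0.01, for 53.0% of the 32895 genes above 0 at GENCODE lengths and for nearly all others at another length. All members were named. Values per library were given for complex II, the 3 highest and 3 lowest changes of each other complex, the c subunit genes, NDUFA4, ATP5IF1 and the extremes of control level, and for the highest and lowest change of each other list. Scripts were tested on simulated data. Promoters are shown only as short stretches because annotated exons lie in the windows.

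Alternatives were other scalings, pseudocounts of 1 and 0.01, other filters, calls by adjusted P value, limma's treat test at 2-fold, limma-voom on recovered reads, the replicate block and leaving out each library. Scaling to equal reads on nuclear genes was added after the data were seen.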

Additional observations from a re-analysis of the deposited data

How the results depend on the processing

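In the deposited scaling 25 members were higher and 2 lower, with a median log2 fold change of 1.30. Equal reads on genes gave 7 higher (median 0.53), limma-voom 7 (0.52), quantile normalization 9 (0.46) and equal reads on nuclear genes, added after the data were seen, 13 (0.71). Equal FPKM sums gave 0 higher and 9 lower (-0.17), and GAPDH 0 higher and 12 lower (-0.55). The distance from the median of all tested genes was 1.04 with GAPDH, 0.70 with quantile normalization, 0.94 with no filter, 1.27 with a mean of at least 1 FPKM and 1.59 among protein-coding genes only. The test against a fold change of 2 left 1 member lower. The shifts under scaling factors follow from those factors and those under filters from the genes tested. The fold test is stricter by construction, and for quantile normalization the cause was not tested. Pseudocounts and adjusted P values kept both counts within 1.5 times. Leaving out 1 library gave 22 to 26 higher, 2 lower each time, a median from 1.23 to 1.31 and a distance from 1.07 to 1.16. Replicate numbers did not pair the libraries (correlation of the deviations of same-numbered libraries 0.0054), and with the replicate block 25 members were higher and 2 lower, while calls over all tested genes went from 5602 to 5667 higher and from 4148 to 4186 lower. Scaled to GAPDH the log2 fold change turned below 0, with a call in either scaling, for 27 members, SDHC -1.38, UQCRC1 -1.11, UQCRC2 -1.69, UQCRH -0.23, UQCR11 -0.83, CYC1 -1.49, COX4I1 -0.34, COX5A -0.47, COX5B -0.45, COX6A1 -0.19, COX6B1 -0.089, COX7A2 -0.26, COX7B -0.27, COX7C -0.19, COX8A -0.35, ATP5F1A -1.33, ATP5F1B -0.59, ATP5F1C -1.47, ATP5F1D -0.85, ATP5MC1 -0.79, ATP5MC2 -0.76, ATP5MF -0.50, ATP5MG -0.21, ATP5PB -1.57, ATP5PD -0.0092, ATP5PF -0.52 and ATP5PO -1.10. With equal FPKM sums the log2 fold change turned below 0, with a call in either scaling, for 14 members, SDHC -1.005, UQCRC2 -1.31, UQCR11 -0.45, CYC1 -1.10, COX5A -0.087, COX5B -0.066, ATP5F1B -0.20, ATP5F1C -1.08, ATP5F1D -0.46, ATP5MC1 -0.41, ATP5MC2 -0.38, ATP5MF -0.12, ATP5PB -1.19 and ATP5PF -0.14. After quantile normalization the log2 fold change turned below 0, with a call in either scaling, for 4 members, UQCRH -0.18, CYC1 -1.04, COX8A -0.38 and ATP5F1B -0.71.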
